A study of Homo sapiens with 12 samples.

Results

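Transcripts of 10 integrin subunits were examined in HT1080 cells, a human fibrosarcoma line: the α subunits ITGA2, ITGA3, ITGA5, ITGA6 and ITGAV and the β subunits ITGB1, ITGB3, ITGB4, ITGB5 and ITGB8. They were chosen by name, and all 10 were listed in both tables, among 16101 genes of the PMA table and 15991 genes of the ConA table. All 10 also passed the filter on low values in both. RNA came from wild-type HT1080 cells in 4 groups of 3 libraries. Every culture, controls included, stood in biotin-depleted medium and was moved to low-serum medium 3 days after seeding. The PMA treated group then received 40 nM phorbol 12-myristate 13-acetate (PMA) for 24 h, and the ConA treated group received 40 µg/mL concanavalin A (ConA) for 24 h. Each treatment had controls of its own, replicates 1 to 3 for PMA and replicates 4 to 6 for ConA, for which the labels give no vehicle. PMA switches on protein kinase C, and ConA is a plant lectin that cross-links sugar-bearing proteins on the cell surface. All libraries are of a single tumor line, so the replicates show the spread within it and not among fibrosarcomas, and the labels do not say whether they came from separate cultures.

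Integrins are the main receptors through which cells hold on to the extracellular matrix. Each is a pair of an α and a β subunit, and the pair decides the ligand: ITGA2 with ITGB1 binds collagen, ITGA3 or ITGA6 with ITGB1 and ITGA6 with ITGB4 bind laminin, ITGA5 with ITGB1 binds fibronectin, and ITGAV pairs with ITGB1, ITGB3, ITGB5 or ITGB8 to bind vitronectin, fibronectin and latent TGF-β. Several α subunits share 1 β subunit, so the transcript level of 1 partner does not give the level of the pair at the surface. The pair of ITGA3 and ITGB1 is also known as a surface receptor for TIMP2, the metalloproteinase inhibitor that the study is about.

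Values are normalized counts, which are counts per gene divided by a factor for each library and not divided by transcript length. Depth was 33616572 to 45569292 estimated reads per library, with a median of 40949397. The mesenchymal markers (VIM, SPARC and the others of 8) were all listed in both tables, with a summed level of 299950 to 310060 in the PMA experiment controls, 338420 to 359470 with PMA, 298750 to 314450 in the ConA experiment controls and 253400 to 275470 with ConA. The sums hide opposite changes. With PMA 4 of the 8 rose and 4 fell (32.8% and 30.5% of all genes). With ConA 4 rose and 2 fell (32.8% and 32.5%). VIM went from 192600 to 200600 in controls up to 267400 to 285100 with PMA. SPARC went from 62500 to 63940 down to 21820 to 22070. With ConA VIM stood at 77840 to 83370, against 130000 to 143600 in controls. Unlike the mesenchymal markers, the epithelial markers CDH1, EPCAM, CLDN7, KRT5, KRT14 and GRHL2 were not listed in the PMA table. The 2 of 8 epithelial markers listed there summed to 129.99 to 135.93 in controls and 65.9 to 81.3 with PMA, and the 6 listed in the ConA table to 154 to 167 in controls and 166 to 216 with ConA. Of 12 leukocyte markers 9 were listed in the PMA table, with a summed level of 1229 to 1257 in controls and 1373 to 2329 with PMA, and 4 in the ConA table, with 405 to 503 in controls and 560 to 602 with ConA. PTPRC, the common leukocyte antigen, thus stood at 176 to 187 normalized counts in the PMA experiment controls although the label is a fibrosarcoma line. In bulk RNA, fewer cells of a type and less RNA per cell cannot be told apart.

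Promoter sequences were found in RefSeq for 7 of the 10 subunits (ITGA2, ITGA5, ITGA6, ITGAV, ITGB1, ITGB5 and ITGB8). Of these, ITGA5 and ITGAV rose with both treatments, ITGA5 by more, and ITGB8 had the largest fall. ITGA5 and ITGB8 are therefore printed from 250 bases before to 25 bases after the RefSeq start in build GRCh38.p14. Capitals mark matches on either strand to the AP-1 motif TGANTCA, the GC box GGGCGG, the TEAD motif GGAATG and the NF-kB consensus. The ITGA5 stretch lies at chr12:54419242-54419516 on the minus strand and the ITGB8 stretch at chr7:20330650-20330924 on the plus strand.
ITGA5: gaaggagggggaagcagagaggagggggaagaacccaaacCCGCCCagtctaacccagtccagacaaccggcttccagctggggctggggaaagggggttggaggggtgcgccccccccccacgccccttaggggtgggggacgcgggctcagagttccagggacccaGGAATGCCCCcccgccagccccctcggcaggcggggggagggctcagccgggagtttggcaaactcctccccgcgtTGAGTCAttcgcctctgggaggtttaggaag
ITGB8: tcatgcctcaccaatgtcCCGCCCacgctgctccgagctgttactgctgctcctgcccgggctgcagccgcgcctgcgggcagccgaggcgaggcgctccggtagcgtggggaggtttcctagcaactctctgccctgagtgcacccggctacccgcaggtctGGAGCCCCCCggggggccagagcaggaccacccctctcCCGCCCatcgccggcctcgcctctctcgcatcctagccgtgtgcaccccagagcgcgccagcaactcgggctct

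Both are GC-rich (69.3% for ITGA5 and 71.7% for ITGB8 over 300 bases, against a median of 58.3% over all promoters). ITGA5 held an AP-1 match that begins 6 bases before the RefSeq start. It alone of the 7 did, where 7.76% of all 27305 promoters of that length hold one. The TEAD match of ITGA5 overlaps its NF-kB match, and both begin 82 bases before the RefSeq start. GENCODE v29 begins ITGA5 at 54419460 and ITGB8 at 20330702, inside the printed stretches and upstream of the RefSeq starts. By GENCODE these 3 matches of ITGA5 thus lie within the gene, as do the NF-kB match and the nearer GC box of ITGB8. GC boxes were found in 6 of 7 (44.6% of all promoters), the NF-kB consensus in 3 (10.8%) and the TEAD motif in 2 (14.0%). ITGAV, which also rose with both treatments, held no match to any of these motifs. A match describes the letters and says nothing of binding in these cells.

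Levels between subunits were compared as normalized counts per kilobase of the principal GENCODE v29 transcript. In the PMA experiment controls, ITGB1 at 13703 ± 207 and ITGA3 at 13660 ± 645 (SD, n = 3) led, and their ranges overlapped. ITGB1 is the common partner of most α subunits. Below them came ITGA2 (6451 ± 81.6), ITGB5 (4932 ± 75.2), ITGA5 (3988 ± 248), ITGA6 (1740 ± 41.4) and ITGAV (855 ± 20.3). ITGB3 (349 ± 14.4), ITGB4 (89.6 ± 1.27) and ITGB8 (72.0 ± 8.04) closed the order, and here no neighbors overlapped apart from the leading pair. In the ConA experiment controls the order differed in that ITGB5 (7206 ± 201) stood over ITGA2 (5453 ± 562), and ITGB4 (117 ± 10.5) and ITGB8 (102 ± 9.27) overlapped. The tables were normalized apart, so levels are compared only within each.

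With PMA, ITGA5 moved over ITGB5 to 6649 ± 277 per kilobase, ITGB3 reached 878 ± 22.1 beside 1094 ± 38.0 for ITGAV, and ITGB4 and ITGB8 dropped to 17.5 ± 2.51 and 6.95 ± 1.32. With ConA, ITGA5 came next after ITGB1 and ITGA3 at 7777 ± 255, and ITGB4 (36.7 ± 6.96) stood under ITGB8 (99.9 ± 9.39). The span between the most and least abundant subunit was thus widest in the PMA treated cells, where ITGB1 reached 15520 ± 336 per kilobase.

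**Figure D1:**
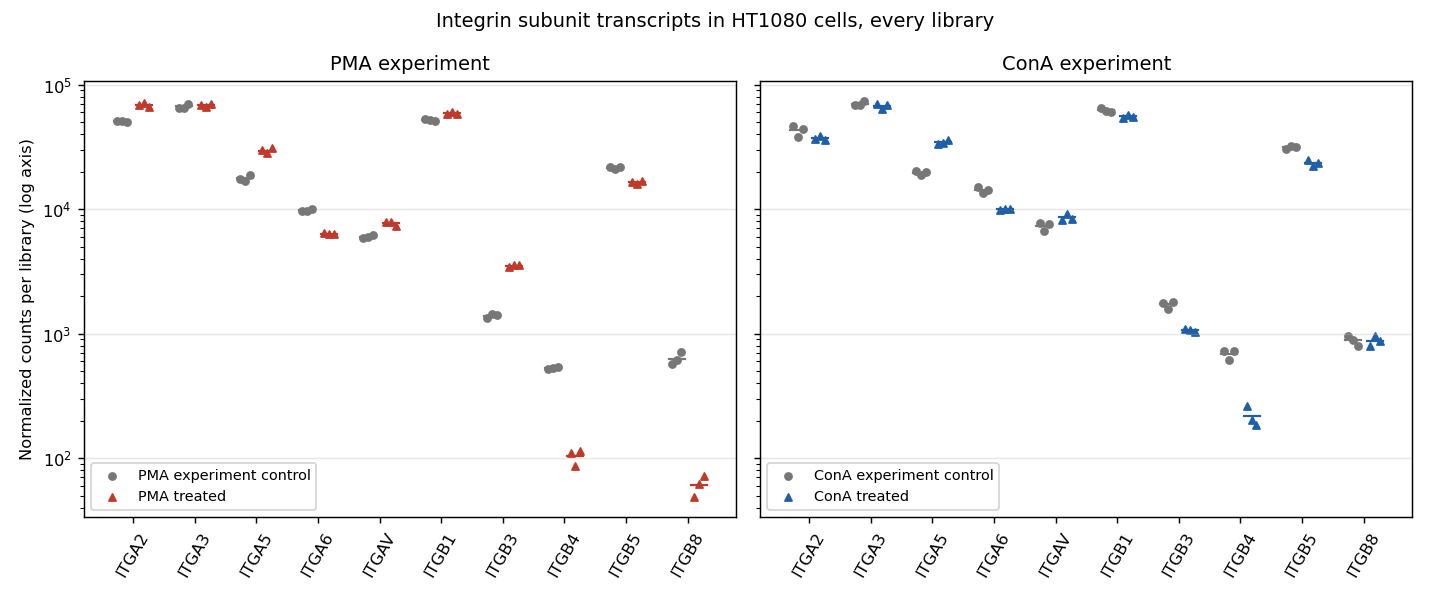
Normalized counts of the 10 subunits in every library (log axis) in the PMA experiment (left) and the ConA experiment (right). Gray circles are controls, red triangles PMA, blue triangles ConA, and lines the means of 3 libraries. ITGB8 drops from 569 to 707 in controls to 48.8 to 71.8 with PMA and overlaps its controls with ConA, while ITGB4 is lower with both.

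PMA shifted the subunits in both directions. ITGB3, ITGA5, ITGA2, ITGAV and ITGB1 rose and ITGB8, ITGB4, ITGA6 and ITGB5 fell, while ITGA3 did not pass the test. This makes 9 of 10 at an adjusted p of at most 0.05 (limma on log2(value + 1), Benjamini-Hochberg over 15153 genes), where 63.3% of all genes tested passed. The 5 that rose stand beside 32.8% of all genes and the 4 that fell beside 30.5%. A change of at least 2-fold at an adjusted p of at most 0.0001 was met by ITGB3 upward (4.03% of all genes) and by ITGB4 and ITGB8 downward (4.61%), or 3 of 10 against 8.65% in either direction. The median log2 fold change of the 10 subunits was 0.10, against 0.003 over all genes, and the median absolute change was 0.52 against 0.30. The groups did not overlap for 9 of 10 subunits (67.9% of all genes), 5 of them higher (34.8%) and 4 lower (33.1%) with PMA.

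With ConA 6 subunits fell and 2 rose, or 4 and 3 after quantile normalization, where ITGA2 and ITGB1 no longer passed and ITGA3 rose. In the values as deposited ITGB4, ITGB3, ITGA6, ITGB5, ITGA2 and ITGB1 fell, ITGA5 and ITGAV rose, and ITGA3 and ITGB8 did not pass the test. These 8 of 10 stand beside 65.3% of all 15139 genes tested, the 2 that rose beside 32.8% and the 6 that fell beside 32.5%. The 2-fold call was met by 1 subunit, ITGB4, which fell (8.71% of all genes in either direction, 2.88% downward), and by 0 upward (5.83%). Without the variance trend the ITGB4 call was lost (adjusted p = 2.53e-04) at the same log2 change of -1.68. The median log2 fold change was -0.18, against -0.002 over all genes, and the median absolute change was 0.33 against 0.34. The groups did not overlap for 7 of 10 (69.3% of all genes), 2 of them higher (34.9%) and 5 lower (34.4%) with ConA.

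Between the treatments, 5 of 10 subunits differed in their change (ITGA2, ITGB1, ITGB3, ITGB4 and ITGB8) where 61.1% of 15030 genes did. The PMA change was the higher one for ITGA2, ITGB1 and ITGB3 (30.4% of all genes) and the lower one for ITGB4 and ITGB8 (30.7%). A difference of at least 2-fold was called for ITGB3 upward (3.67%) and ITGB8 downward (6.89%), against 10.6% in either direction. ITGA2, ITGB1 and ITGB3 rose with PMA and fell with ConA, and such opposite changes were seen in 13.8% of the genes tested in both tables, though the ConA falls of ITGA2 and ITGB1 and the PMA rise of ITGB1 did not pass after quantile normalization. ITGA5, ITGA6, ITGAV, ITGB4 and ITGB5 went the same way under both (30.2% of genes). This was tested in 1 fit of all 12 libraries by subtracting the ConA change from the PMA change, and since each treatment was its own experiment, treatment and experiment cannot be told apart.

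**Figure D2:**
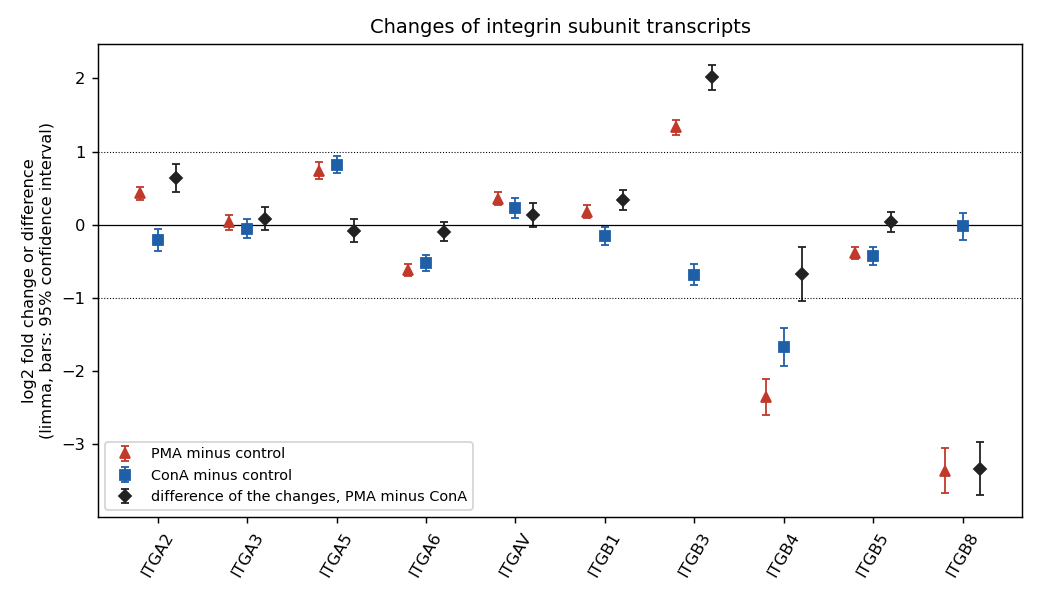
Log2 fold change of each subunit with PMA (red triangles) and ConA (blue squares) against its own controls, and the PMA change minus the ConA change (black diamonds), with 95% confidence intervals from limma. Dotted lines mark a 2-fold change. ITGB3 (difference 2.01) and ITGB8 (difference -3.34) part the treatments most, and ITGA5 lies at 0.74 and 0.82.

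Among the β partners of ITGAV, ITGB8 changed most. It pairs with ITGAV alone and is known for releasing TGF-β from its latent complex. The gene lies at chr7:20330702-20415754 (GRCh38, plus strand). Its normalized counts were 569, 613 and 707 in the PMA experiment controls and 48.8, 61.8 and 71.8 with PMA. Every PMA library lay under every control. The fall was 10.4-fold between the means, with a log2 fold change of -3.36 ± 0.14 (SE, adjusted p = 3.03e-09, limma). With ConA its counts were 791, 955 and 875, against 965, 897 and 803 in the controls, and the groups overlapped. The ConA change was -0.02 (95% interval -0.21 to 0.16, adjusted p = 0.817), and its sign turned when 1 library was left out. The changes differed by -3.34 ± 0.17 on the log2 scale (adjusted p = 2.60e-11).

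ITGB3 went the opposite way. As the β3 chain it joins ITGAV in the vitronectin receptor, and the gene lies at chr17:47253846-47311816 on the plus strand. Counts were 1330.5, 1438 and 1420.0 in the PMA experiment controls and 3409.6, 3577 and 3542 with PMA, so that all PMA libraries stood over the controls by a wide margin. The rise was 2.51-fold, or 1.33 ± 0.045 (adjusted p = 5.61e-10). In the ConA experiment it stood at 1760.1, 1591 and 1808 in the controls and at 1093, 1077 and 1039 with ConA. Here too the groups were apart, but the treated libraries were the lower ones. ITGB3 fell by 0.68 ± 0.065 on the log2 scale with ConA (adjusted p = 5.04e-07), and the difference between the treatments was 2.01 ± 0.078 (adjusted p = 4.61e-13).

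ITGB5, the most abundant of the β subunits that pair with ITGAV only, fell with both treatments. Its counts were 21827, 21193 and 21663 in the PMA experiment controls and 16563.5, 15905 and 16806 with PMA. In the ConA experiment they were 30535, 32241 and 31737 in controls and 24851.5, 22214.5 and 23298 with ConA. Neither pair of groups overlapped, and the changes were -0.39 ± 0.037 with PMA (adjusted p = 3.39e-06) and -0.43 ± 0.056 with ConA (adjusted p = 1.28e-05). The difference of the changes was 0.03 (95% interval -0.11 to 0.17, adjusted p = 0.676), but after quantile normalization it was -0.36 (adjusted p = 8.33e-05).

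ITGAV, the α chain shared by these receptors, rose modestly under both. It was counted at 5861, 6029 and 6145 in the PMA experiment controls and at 7868, 7827 and 7386 with PMA, with no overlap. This is a change of 0.36 ± 0.040 (adjusted p = 1.27e-05). The counts of 7791, 6719.6 and 7549 in the ConA experiment controls and 8207, 9195 and 8360.2 with ConA lay closer together but did not overlap either. Here the change was 0.22 ± 0.064 (adjusted p = 0.00708), and the difference between treatments was 0.13 (95% interval -0.04 to 0.30, adjusted p = 0.168). ITGAV transcripts therefore rose with PMA while, of its partners, ITGB3 rose and ITGB5 and ITGB8 fell.

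Ratios taken inside a library do not depend on the factor of that library, and 5 of them were chosen after the values were seen. ITGB3 per ITGB5 was 0.0648 ± 0.0035 in the PMA experiment controls and 0.214 ± 0.0099 with PMA (SD, n = 3), 3.30-fold higher, against 0.0547 ± 0.0046 in the ConA experiment controls and 0.0457 ± 0.0024 with ConA. ITGB8 per ITGB5 stood at 0.0292 ± 0.0033 and 0.0037 ± 0.00068 in the PMA experiment, 7.96-fold lower with PMA, and at 0.0283 ± 0.0032 and 0.0375 ± 0.0056 in the ConA experiment. The groups did not overlap in any of these 4 comparisons, though by narrow margins in the ConA experiment. With 3 libraries against 3 the two-sided exact permutation p of each was 0.1, the smallest this design allows, so it cannot pass 0.05.

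ITGA5, the α chain of the classical fibronectin receptor, rose with both treatments. Its counts went from 17511, 16745 and 18915 to 29686, 28257 and 30706 with PMA, and from 20117, 18714 and 19833.5 to 33646, 34212 and 35826 with ConA. The treated libraries were all above their controls. The log2 fold changes were 0.74 ± 0.051 (1.67-fold, adjusted p = 2.03e-07) and 0.82 ± 0.054 (1.77-fold, adjusted p = 1.03e-08). Their difference was -0.08 (95% interval -0.24 to 0.07, adjusted p = 0.341), or -0.38 after quantile normalization (adjusted p = 2.30e-04). The ratio of ITGA5 to ITGB1, its only β partner, went from 0.342 ± 0.026 to 0.504 ± 0.032 with PMA and from 0.315 ± 0.012 to 0.622 ± 0.029 with ConA, again with p = 0.1 in the exact permutation test.

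ITGB1, the β partner shared most widely, had the smallest change of the subunits that passed in each experiment. It was counted at 52503, 52072 and 50982 in the PMA experiment controls and at 58339, 60149 and 57697 with PMA. In the ConA experiment, controls of 64838, 61078 and 60371 stood beside 54317, 57493 and 54917. The groups were apart in both, upward with PMA and downward with ConA. The changes were 0.18 ± 0.040 (adjusted p = 0.00209) and -0.16 ± 0.057 (adjusted p = 0.0235), and they differed by 0.34 ± 0.066 (adjusted p = 2.49e-04). Quantile normalization took all of these over the threshold (0.09, adjusted p = 0.0914 with PMA, -0.001, adjusted p = 0.989 with ConA, and 0.09, adjusted p = 0.341 for the difference), and so did leaving out ConA treated replicate 1 or 3 or control replicate 4 for the ConA change.

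ITGA2, the collagen-binding α chain, rose with PMA and was lower with ConA. The PMA experiment gave 51339, 50872 and 50069 in controls and 68059, 70713 and 66034 with PMA, with no overlap and a change of 0.43 ± 0.042 (adjusted p = 4.35e-06). The ConA experiment gave 46469, 37967 and 44303 in controls and 36688, 38539 and 35705 with ConA. Control replicate 5 fell among the treated libraries, so these groups overlapped. The ConA change of -0.21 ± 0.071 (adjusted p = 0.0183) did not pass the threshold without ConA treated replicate 3 (adjusted p = 0.0748), control replicate 4 (0.0871) or control replicate 6 (0.0774), after quantile normalization (-0.07, adjusted p = 0.400) or without the variance trend (adjusted p = 0.0799). The difference between the treatments, 0.64 ± 0.088 (adjusted p = 7.61e-06), passed in all 19 alternatives.

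Among the 10 subunits, the laminin-binding ITGB4 had the second largest fall with PMA and the largest with ConA. ITGB4 pairs with ITGA6 in the hemidesmosome, where its long cytoplasmic tail reaches intermediate filaments through plectin, and it lies at chr17:75721328-75757818 on the plus strand. Counts were 525, 528 and 539 in the PMA experiment controls and 110.3, 86.5 and 114 with PMA. In the ConA experiment they were 733, 619 and 720.3 in controls and 263, 204 and 184 with ConA. Treated and control libraries were far apart in both. The falls were 5.12-fold with PMA (-2.36 ± 0.11, adjusted p = 6.99e-09) and 3.18-fold with ConA (-1.68 ± 0.12, adjusted p = 3.01e-08). The fall was larger with PMA by 0.68 ± 0.18 on the log2 scale (difference -0.68, adjusted p = 0.00299). GALK1, a galactokinase gene on the other strand, shares 6225 bases with the ITGB4 locus, and the sources used here do not say whether reads were counted by strand. Its counts were 1129 to 1256 in the PMA experiment controls, 1037 to 1116 with PMA, 1744 to 2012 in the ConA experiment controls and 1139 to 1414 with ConA, and its part in the ITGB4 values was not tested. The summed epithelial markers, given above, also lay under their controls with PMA but not with ConA, over 2 and 6 markers. The ConA sum hides opposite shifts. ESRP1 stood at 16.0 to 23.0 in the ConA experiment controls and 5.23 to 12.0 with ConA, and CLDN4 at 98.05 to 102 and 112 to 153. The part of these markers in the ITGB4 values was not tested either.

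ITGA6 fell with both treatments. Counts of 9645, 9638 and 10044 in the PMA experiment controls stood against 6383, 6308 and 6348 with PMA, and 15175, 13524 and 14343 in the ConA experiment controls against 9907, 9946 and 10029 with ConA. No library crossed between the groups. The changes were -0.62 ± 0.035 (adjusted p = 4.16e-08) and -0.52 ± 0.054 (adjusted p = 1.03e-06). Their difference of -0.10 (95% interval -0.23 to 0.03) had an adjusted p of 0.184, or -0.27 with an adjusted p of 0.00156 after quantile normalization. ITGB4 fell further than its partner: ITGB4 per ITGA6 went from 0.0543 ± 0.00056 to 0.0163 ± 0.0023 with PMA and from 0.0481 ± 0.0022 to 0.0218 ± 0.0043 with ConA, without overlap (exact permutation p = 0.1 in both).

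ITGA3, the other laminin-binding α chain and one of the most abundant subunits, did not pass the test with either treatment. Its counts were 65503, 64453 and 70361 against 68696, 66084.5 and 69589.6 with PMA, and 68712, 68084 and 74089 against 69982, 64006 and 69192 with ConA. The groups overlapped in both experiments. The changes were 0.03 (95% interval -0.07 to 0.13, adjusted p = 0.603) and -0.05 (95% interval -0.19 to 0.08, adjusted p = 0.459), and after quantile normalization the ConA value turned to 0.13 with an adjusted p of 0.0433. As ITGA6 fell, ITGA6 per ITGA3 went from 0.147 ± 0.0035 to 0.0932 ± 0.0021 with PMA and from 0.204 ± 0.015 to 0.147 ± 0.0072 with ConA (exact permutation p = 0.1 in both).

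**Figure D3:**
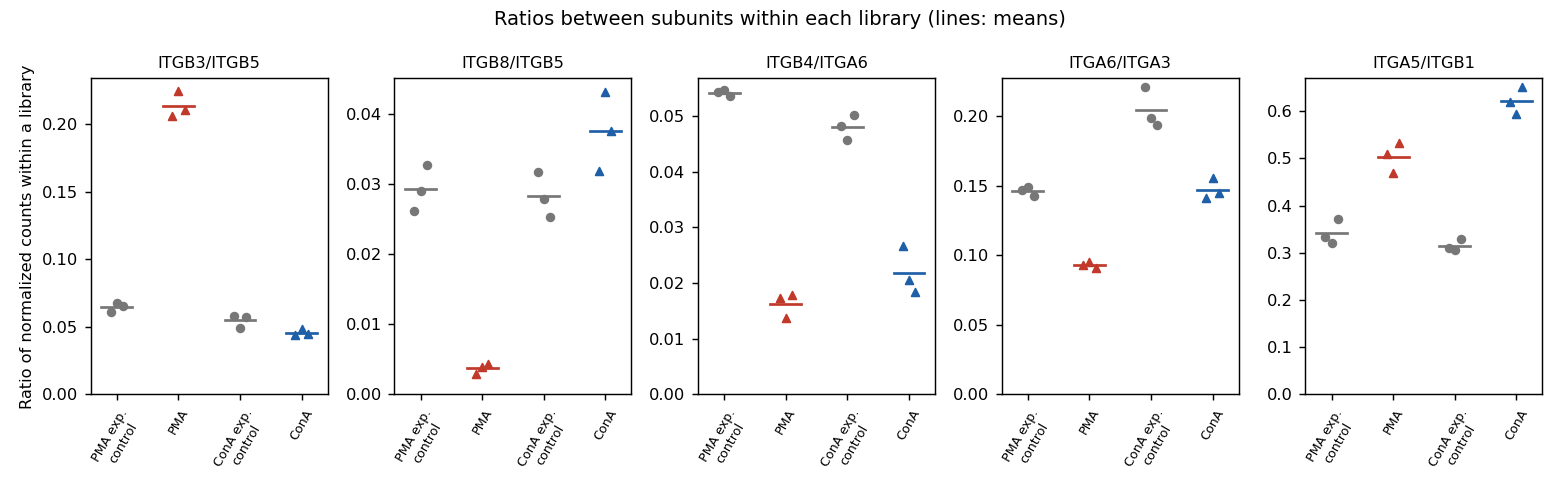
Ratios of normalized counts between subunits within each library. Points are single libraries (gray circles controls, red triangles PMA, blue triangles ConA), lines are means of 3, and each axis starts at 0. ITGB3/ITGB5 rises from 0.0648 to 0.214 with PMA alone, ITGB8/ITGB5 drops to 0.0037 there, and ITGB4/ITGA6, ITGA6/ITGA3 and ITGA5/ITGB1 shift the same way with both treatments.

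The genes most like ITGB8 across the 12 libraries, by the distance of their log2 deviations from the mean of their own controls among 14651 genes, were ZSCAN31 (a zinc finger protein, distance 0.730), NR4A2 (an orphan nuclear receptor, 0.868) and SLC2A12 (a glucose transporter, 0.871). Their log2 fold changes with PMA were -3.36, -3.29 and -3.62, and with ConA they were -0.13, -0.08 and -0.08.

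Other integrin subunits also moved in both directions. Of 16 further subunits 14 were listed in either table, and ITGA8 and ITGA9 in neither. With PMA 12 were tested, of which 5 rose, 3 fell and 4 did not pass, and with ConA 11 were tested, of which 3 rose, 5 fell and 3 did not pass. Over all genes 32.8% rose and 30.5% fell with PMA, and 32.8% rose and 32.5% fell with ConA. The collagen-binding α chains ITGA11 and ITGA10 fell with both treatments, with log2 fold changes of -2.28 ± 0.053 and -1.63 ± 0.047 with PMA and -0.89 ± 0.096 and -0.65 ± 0.068 with ConA. ITGA1, a further collagen-binding chain, rose with PMA (2572 ± 34.8 to 5694 ± 292, a change of 1.14 ± 0.044) and fell with ConA (-0.20 ± 0.081, adjusted p = 0.0436), where its groups overlapped. Together with ITGA2, the collagen-binding α chains thus split with PMA, 2 up and 2 down, whereas all 4 were lower with ConA, ITGA1 and ITGA2 with overlapping groups.

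Among the leukocyte-type chains, ITGB2 (579 ± 83.2 to 1114 ± 139) and ITGAX (120 ± 16.8 to 241 ± 25.1) rose with PMA, as did ITGAL and ITGB7 (log2 changes of 0.71 ± 0.15 and 0.73 ± 0.17). ITGA4 fell with PMA (1439 ± 72.9 to 785 ± 33.3, a change of -0.87 ± 0.056), and ITGAE (0.13, adjusted p = 0.490) and ITGAM (0.09, adjusted p = 0.751) did not pass. These 7 chains were named after their values were seen. The leukocyte markers given earlier were listed in the same libraries and had a higher sum with PMA, and 4 of the 8 that were tested rose, where 32.8% of all genes did. Their part in these 4 values was not tested. With ConA ITGB2 rose (0.28 ± 0.091), ITGA4 (-0.32 ± 0.070) and ITGAE (-0.61 ± 0.14) fell, and ITGAX did not pass (adjusted p = 0.322, limma). ITGAL was not listed for the ConA experiment, and ITGB7 was under the filter there. The leukocyte markers had a higher sum with ConA too, and their part was not tested. ITGAM rose with ConA from 1.04, 3.00 and 7.01 to 32.0, 35.5 and 20.7 normalized counts, and ITGB6, the epithelial β partner of ITGAV, from 14.9 ± 4.66 to 34.8 ± 9.52. Both are near the lower limit of the values tested. In the PMA experiment ITGAM stood at 35.05 ± 6.91 in controls and at 37.2 ± 6.55 with PMA. Its lower control level was thus seen in the ConA experiment only.

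**Figure D4:**
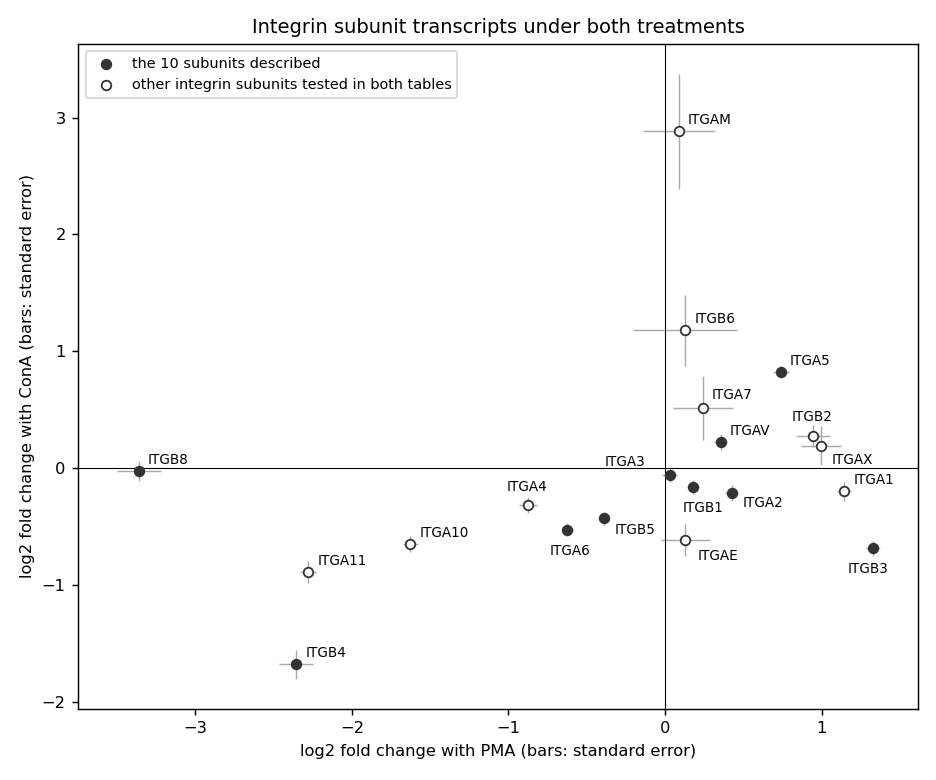
Log2 fold change with PMA (horizontal) and with ConA (vertical) for the 10 subunits (filled) and the other integrin subunits tested in both tables (open), with standard errors. ITGB3 lies lower right (1.33 and -0.68), ITGB8 far left on the zero line of ConA, ITGB4, ITGA11 and ITGA10 lower left, and ITGA5 upper right.

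The lists that follow share some genes and stand beside the shares of all genes given above (32.8% higher and 30.5% lower with PMA, 32.8% and 32.5% with ConA). Of the proteins that switch integrins on or off, 17 were tested with PMA, of which 10 rose, 3 fell and 4 did not pass, and 16 with ConA, of which 6 rose, 5 fell and 5 did not pass. Kindlins bind the β tail: with PMA FERMT1 rose from 1148 ± 106 to 5622 ± 305 (log2 change of 2.29 ± 0.066) and FERMT3 from 74.3 ± 4.89 to 161 ± 43.4 (1.07 ± 0.18). The talin TLN2 fell by 1.16 ± 0.063, but TLN1, the more abundant talin, rose from 19040 ± 2369 to 34220 ± 2548. The kindlin FERMT2 rose as well, from 2148 ± 76.4 to 4343 ± 89.8. TLN1 and FERMT2 were named after their values were seen, and neither passed with ConA (adjusted p = 0.428 and 0.725). FERMT3 is the kindlin of blood cells, and the part of the leukocyte markers, whose sum was higher with PMA, in its value was not tested. With ConA the exchange factors for Ras or Rap, RASGRP3 and RASGRP1, rose from low levels (10.9 ± 3.22 to 333 ± 49.7, and 4.42 ± 1.66 to 18.3 ± 1.42), and TLN2 fell by 0.66 ± 0.078. FERMT1 also rose with ConA (0.34 ± 0.063), and RASGRP1 (0.51 ± 0.15) with PMA, as did RAPGEF3, an exchange factor for Rap, with both (0.94 ± 0.14 with PMA and 0.59 ± 0.16 with ConA), values named here after they were seen. The list median was 0.39 with PMA and -0.004 with ConA.

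Focal adhesion adaptors and kinases, which link the clustered receptors to actin, went both ways. With PMA 12 of 27 rose and 7 fell, and with ConA 7 rose and 12 fell. TNS4, a short tensin, fell from 75.8 ± 7.85 to 5.14 ± 3.83 with PMA and rose from 103 ± 14.4 to 193 ± 13.6 with ConA. CAV1 and TNS1 fell with PMA (-1.06 ± 0.035 and -0.96 ± 0.080). With ConA CAV1 fell as well (-0.42 ± 0.050), whereas TNS1 rose (0.64 ± 0.077). TNS3 rose with both treatments (0.73 ± 0.049 with PMA and 0.74 ± 0.059 with ConA). LPP fell with ConA (-1.19 ± 0.10) and did not pass with PMA (adjusted p = 0.0781, limma). The list medians were 0.11 and -0.09.

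Of 15 membrane proteins that sit beside integrins, 8 rose and 3 fell with PMA, and 7 rose and 4 fell with ConA. PLAUR, the urokinase receptor, rose with PMA (7036 ± 155 to 18560 ± 580.3), as did the tetraspanins CD82 (0.85 ± 0.037) and CD9 (0.81 ± 0.091). With ConA the largest rises were those of SDC4, a syndecan (4722 ± 161 to 16140 ± 686), of CD47 (3263 ± 119 to 10670 ± 567.1) and of CD82 (0.97 ± 0.054). PLAUR also rose with ConA (0.85 ± 0.056), where CD9 did not pass (adjusted p = 0.589, limma). With PMA SDC4 fell (-0.18 ± 0.046) and CD47 did not pass (adjusted p = 0.190, limma). The medians of this list were 0.11 and 0.09.

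Hemidesmosome partners of ITGA6 and ITGB4 went both ways. Of 7 tested 3 rose and 2 fell with PMA, and 4 rose and 2 fell with ConA. LAMB3, a chain of laminin-332, the ligand of this receptor, rose with PMA from 34770 ± 460.1 to 123500 ± 3231. With ConA LAMB3 rose as well, from 29130 ± 1527 to 48710 ± 1372. LAMA3, another chain of laminin-332 (362 ± 64.8 to 809 ± 121), and COL17A1, the hemidesmosomal collagen (210 ± 15.4 to 663 ± 9.10), rose with ConA. With PMA LAMA3 fell (-0.32 ± 0.090) and COL17A1 did not pass (adjusted p = 0.857, limma). PLEC, the plectin gene, fell by 0.43 ± 0.077 with PMA and by 0.25 ± 0.083 with ConA. The list medians were -0.002 and 0.74.

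Across all 34 integrin ligands, 32 were tested with PMA, of which 9 rose and 15 fell, and 31 with ConA, of which 14 rose and 12 fell (list medians of -0.15 and 0.16). ICAM1, the counter-receptor of leukocyte integrins, rose from 642 ± 43.9 to 12940 ± 304 with PMA and from 435 ± 7.99 to 17580 ± 1480 with ConA. VCAM1, a ligand of the α4 integrins, was listed at 0 in all 3 controls of the ConA experiment. With ConA it stood at 16.0, 43.9 and 28.8. In the PMA experiment VCAM1 stood at 32.35 ± 11.6 in controls and at 36.8 ± 3.52 with PMA (adjusted p = 0.463, limma). Its absence in untreated cells thus held for the ConA experiment only.

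Genes of integrin endocytosis and recycling rose in 10 of 17 cases and fell in 4 with PMA, and rose in 5 and fell in 8 of 17 with ConA. CLIC3, which is tied to the return of integrins from late endosomes, fell from 548 ± 25.6 to 155 ± 19.2 with PMA and from 1688 ± 143 to 851 ± 99.2 with ConA. The cargo adaptors DAB2 (1.24 ± 0.052) and NUMB (1.16 ± 0.036) rose with PMA. NUMB also rose with ConA (0.55 ± 0.058), where DAB2 did not pass (adjusted p = 0.207, limma). PRKCA, a protein kinase C isoform that phorbol esters bind, and RAB4A, a GTPase of fast recycling, fell with ConA (-1.91 ± 0.062 and -1.15 ± 0.077). Both also fell with PMA (-0.78 ± 0.045 and -0.15 ± 0.051), values named here after they were seen. The list medians were 0.17 with PMA and 0.03 with ConA.

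**Figure D5:**
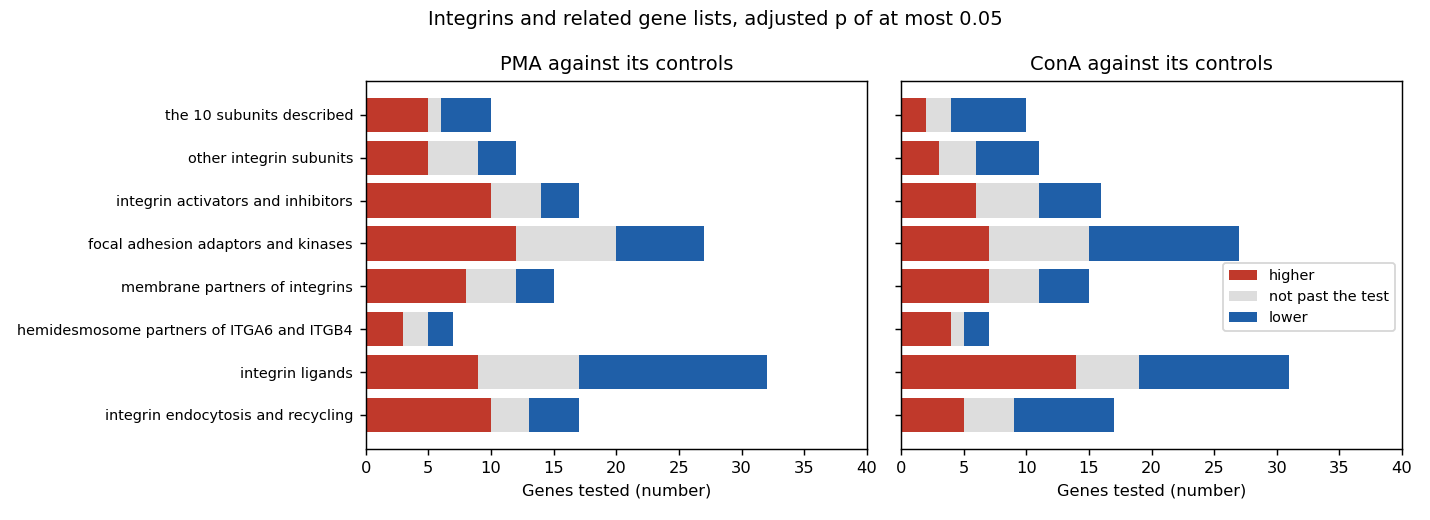
Number of genes tested in each list that were higher (red), lower (blue) or not past an adjusted p of 0.05 (gray) with PMA (left) and ConA (right). Of the activators and inhibitors 10 are higher and 3 lower with PMA, and of the 10 subunits 2 are higher and 6 lower with ConA.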

How the data were processed

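Polyadenylated RNA of 12 HT1080 libraries was sequenced by a service company. The authors deposited 1 table per experiment, and its signal values are normalized counts per gene symbol: estimated counts divided by 1 factor per library, not by length. The submitters' processing notes name STAR, Bowtie2, Partek and DESeq2 and the builds hg19 and mm10, with no role for each. Whole reads could not be recovered (81.8% to 84.2% of values between 5 and 60 came out whole within 0.05 reads), so read-count tests were not run, and depth was estimated from those steps. Replicates differed by 3.40 to 16.3 times sampling variance, so the spread among 3 libraries sets the precision, and p-values measure that spread, which may be technical.

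Each treatment was compared with the controls of its own table with limma 3.58.1 in R 4.3.3 (lmFit and eBayes with a variance trend) on log2(value + 1), for genes with a mean of at least 10, with Benjamini-Hochberg adjustment over all genes tested. Fold changes on this scale understate those of low genes. "Rose" and "fell" mean an adjusted p no higher than 0.05. The 2-fold call asked for an absolute log2 change of 1 or more with the adjusted p no higher than 0.0001. The difference between treatments was tested over 12 libraries with 4 group means. A ± after a count or ratio is an SD, and after a log2 change an SE.

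All 10 subunits are named, and of each further list the 3 genes with the largest change per treatment among those tested. The genes most like a subunit were the 3 at the smallest Euclidean distance over 12 libraries. Genes named beyond this rule were added with their values known. They were ITGB2, ITGAX, ITGAL, ITGB7, ITGA4, ITGAE, TLN1, FERMT2, RAPGEF3, GALK1, PTPRC, VIM, SPARC, ESRP1 and CLDN4. ITGAM, RASGRP1, PRKCA, RAB4A, TNS3, LPP, LAMA3, COL17A1, VCAM1, SDC4 and CD47 with PMA were added in this way too. So were ITGA1, ITGA10, FERMT1, CAV1, TNS1, LAMB3, PLEC, PLAUR, CD9, NUMB and DAB2 with ConA. The subunits and lists were chosen with earlier results of these data known. Alternatives covered the pseudocount, the filter, quantile normalization, median centring, the variance trend, 1 fit of all libraries, the replicate number as a block and leaving out each library. On simulated data with 200 changed genes, 66 of 66 changes of 1.5 (log2) passed in each table, and 42 of 68 (PMA) and 48 of 68 (ConA) changes of 0.5 did. The simulation used a set dispersion of 0.01 and changed only genes with a control mean of at least 50. That dispersion was not taken from these libraries, so the shares do not give the power for the subunits. A gene counted in the lists that the naming rule would have named is not reported here. Promoters came from RefSeq (GRCh38.p14) and transcript lengths from GENCODE v29. Plots used matplotlib 3.10.9, and tables used pandas 2.3.3 and numpy 2.4.6 in Python 3.11.15.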

Additional observations from a re-analysis of the deposited data

Results flagged for a closer look

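For 2 subunits the test of the difference between the treatments passed the 2-fold call. ITGB3 differed by 2.01 on the log2 scale (PMA change minus ConA change): it was higher in 3 of 3 PMA libraries and lower in 3 of 3 ConA libraries than in any control of the same table. ITGB8 differed by -3.34, lower in 3 of 3 PMA libraries and overlapping its controls with ConA. Treatment and experiment cannot be told apart in either.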

How the results depend on the processing

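Over 480 alternatives on the 30 changes of single subunits, 458 kept their direction and side of the threshold, 11 lost and 3 gained significance and 8 turned sign. Quantile normalization turned ITGA3 to -0.059 (PMA), 0.13 (ConA) and -0.19 (difference), ITGAV to -0.038 and ITGB5 to -0.36 (differences), on the log2 scale. Leaving out 1 library turned ITGB8 with ConA to 0.045 (without ConA treated replicate 1) or 0.037 (without control replicate 4), within -0.095 to 0.045 over all libraries left out, and the ITGB5 difference to -0.0044 (without ConA treated replicate 2), within -0.0044 to 0.077, and brought the ITGAV difference to 0.19 (adjusted p = 0.0269, without control replicate 5). Genes whose mean was 10000 normalized counts or more (628 and 730 genes) shifted by -0.167 (PMA) and 0.0501 (ConA) under quantile normalization, and the cause was not tested.

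Without the variance trend the number of subunits called 2-fold with ConA went from 1 to 0 (ITGB4, adjusted p = 2.53e-04), and the calls over all genes from 1310 to 867 with PMA and from 1318 to 662 with ConA. Leaving out each library in turn gave 9 changed and 3 called subunits with PMA, 6 to 8 and 1 with ConA, and 5 to 6 and 2 for the difference. Replicate numbers are shared between groups in the PMA table only, and same-numbered libraries did not deviate together (correlations of -0.0636, 0.0964 and 0.0964, and not every library correlated best with its own number), so they were not treated as pairs. With the replicate number as a block 9 subunits changed and 3 were called, and the calls over all genes went from 1310 to 1264. Depth limits the low values: with PMA, ITGB8 rests on 42.0 to 65.0 estimated reads per library.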
